A study of Mus musculus with 2 samples.

Results

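The mouse genes named Zfp with a number encode zinc finger proteins, and their RNA was compared between cultured heart cells treated with an antagomir to the piRNA FERPIR and cells treated with a negative control. A gene was taken as a member when its symbol was Zfp followed only by digits and the higher of its 2 FPKM values, fragments scaled to transcript length and library total, was at least 2. Of 10992 genes in the deposited table, 260 carried such a symbol and 139 met the minimum. The other 121 stayed under 2 FPKM in both libraries and are not called members. Members were selected on their FPKM values in these 2 libraries, so their levels are given as descriptions. The antagomir library came from neonatal mouse cardiomyocytes transfected with an antagomir, a modified antisense oligonucleotide that binds a small RNA. The control library came from neonatal cardiomyocytes transfected with a negative control, and a separate treatment label read PBS for both. Strain, sex, exact age and the number of animals or dishes pooled were not given in the sources used here. There was 1 library per group, so no difference below has a replicate check or a test, and each value describes these 2 libraries. The number of reads behind the values is unknown, and FERPIR itself, a small RNA, was not measured.

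Zinc finger proteins of the C2H2 class bind DNA, and some bind RNA, through tandem loops that each hold a zinc ion between cysteine and histidine pairs. Many mouse members also carry a KRAB domain, whose A box recruits the corepressor KAP1, encoded by Trim28. KAP1 brings histone methylation and heterochromatin proteins to transposons and imprinted genes. KRAB zinc finger genes multiplied by tandem duplication, so they lie in runs along chromosomes and many have close copies. Members without a KRAB domain include transcription regulators, ubiquitin ligases and factors of ribosome and RNA biology.

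Close copies matter for reading these values, so 2 pairs are shown on chromosome 17 with their sequences. Zfp942 and Zfp944, both with a KRAB A box, had promoters that matched over 275 bases with 1 differing base, given in capitals (RefSeq, build GRCm38.p6). The Zfp942 stretch lies at chr17:21962440-21962714 on the minus strand and the Zfp944 stretch at chr17:22361351-22361625 on the minus strand.
Zfp942: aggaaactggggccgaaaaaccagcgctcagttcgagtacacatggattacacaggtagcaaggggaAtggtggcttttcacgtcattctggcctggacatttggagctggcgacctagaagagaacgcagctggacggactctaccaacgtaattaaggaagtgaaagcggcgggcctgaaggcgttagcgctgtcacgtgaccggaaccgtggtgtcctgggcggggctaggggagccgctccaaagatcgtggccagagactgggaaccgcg
Zfp944: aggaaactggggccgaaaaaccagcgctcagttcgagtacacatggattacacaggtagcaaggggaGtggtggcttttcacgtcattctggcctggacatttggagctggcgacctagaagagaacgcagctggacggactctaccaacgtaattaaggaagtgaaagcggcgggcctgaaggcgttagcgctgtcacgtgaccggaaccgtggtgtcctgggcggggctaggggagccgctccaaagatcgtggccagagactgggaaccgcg
Zfp960 and Zfp97, also with a KRAB A box, had coding sequences identical at 98.2% of 1638 bases, and 30 bases differed. A stretch of 120 coding bases from exon 4, bases 391 to 510 of each coding sequence, is one of the most alike that still hold a difference, with the 1 differing base in capitals (GENCODE release M21, build GRCm38). It lies at chr17:17087416-17087535 on the plus strand in Zfp960 and at chr17:17144631-17144750 on the plus strand in Zfp97.
Zfp960: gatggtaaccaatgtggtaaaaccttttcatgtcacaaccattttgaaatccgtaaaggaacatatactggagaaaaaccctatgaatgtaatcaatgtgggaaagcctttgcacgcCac
Zfp97: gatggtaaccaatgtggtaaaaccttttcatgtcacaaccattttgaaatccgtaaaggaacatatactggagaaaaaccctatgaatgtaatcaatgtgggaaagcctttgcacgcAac

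The Zfp942 and Zfp944 genes had opposite ratios behind those nearly identical promoters. Zfp942 had 1.84 FPKM in the antagomir library, against 3.40 FPKM in the control library. It passed the minimum of 2 FPKM through the control library alone, so it had to be lower in the antagomir library. Zfp944 had 6.62 FPKM in the antagomir library, against 4.35 FPKM in the control library. On the scale used throughout, the log2 of (antagomir FPKM + 1) over (control FPKM + 1), these are -0.63 and 0.51. Their coding sequences were 88.3% identical, and 4.01% of the 75-base windows of Zfp942 occurred in another gene, as did 4.76% of those of Zfp944. Zfp960 and Zfp97 were both lower in the antagomir library. Zfp960 had 2.78 FPKM in the antagomir library, against 5.41 FPKM in the control library, and Zfp97 had 1.35 FPKM in the antagomir library, against 2.05 FPKM in the control library. Of their 75-base windows 76.8% and 75.3% occurred in another gene, so reads cannot be assigned between this pair with certainty. Zfp97 also passed the minimum through the control library alone, so it had to be lower in the antagomir library. Across all members 100 had no shared 75-base window, 18 had at least 5% of windows shared and 8 at least 30%.

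The Zfp genes as a group lay slightly below the rest of the transcriptome in the antagomir library. Their median log2 ratio was -0.19, with an interquartile range of -0.42 to 0.12, against -0.05 over all 9125 genes with the same minimum. Of the 139 members 89 had a lower value in the antagomir library (64.0%), and so did 54.3% of all genes. At least 1.5-fold lower on the FPKM + 1 scale were 22 members, or 15.8%, close to the 14.2% of all genes. At least 1.5-fold higher were 8 members, or 5.76%, against 11.5% of all genes. No member was 2-fold higher and 3 were 2-fold lower, where all genes gave 3.10% and 4.14%. The spread across members, an SD of 0.43, was narrower than the 0.57 over all genes. With the median of all genes set to 0 the member median was -0.13. Without the FPKM minimum it was -0.06 over 260 genes, against -0.04 over all 10992 genes, so the distance between them shrank from -0.13 to -0.02. The 121 genes under the minimum had a median of -0.004 with 60 higher and 61 lower.

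**Figure D1:**
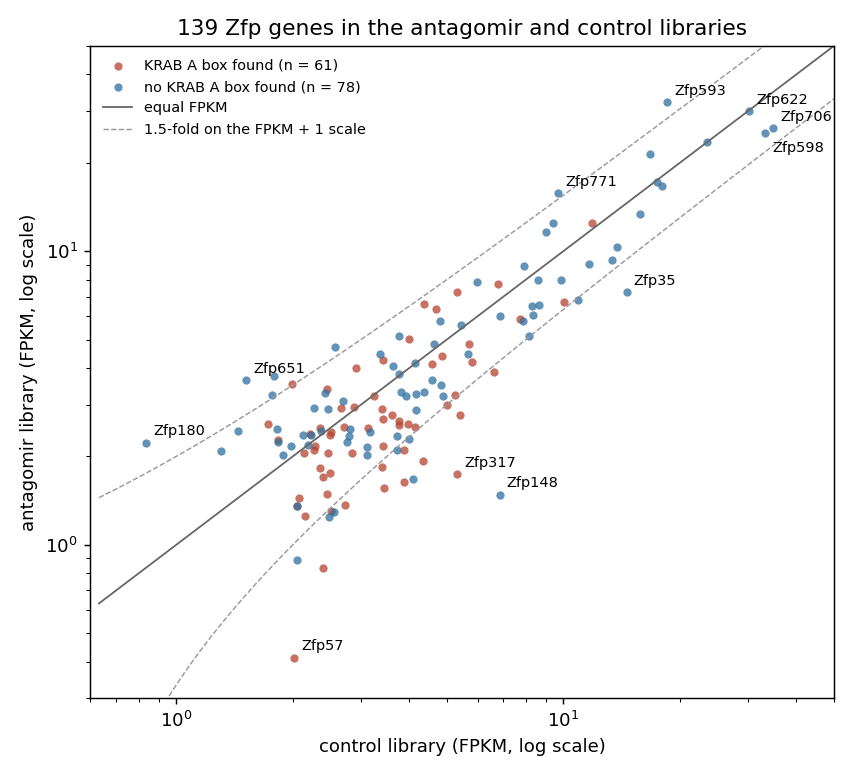
FPKM of the 139 Zfp genes in the antagomir library (vertical, log scale) and in the control library (horizontal, log scale), 1 library each, with equal FPKM as a solid line and a 1.5-fold ratio on the FPKM + 1 scale as dashed lines. Most genes lie between 1 and 10 FPKM, 22 lie on or below the lower dashed line and 8 on or above the upper one.

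These genes were expressed at low levels. The median member had 2.94 FPKM in the antagomir library and 3.72 FPKM in the control library, where all genes with the same minimum had medians of 8.72 FPKM in the antagomir library and 9.26 FPKM in the control library. Under 5 FPKM in the higher library were 92 members, or 66.2%, and 26.1% of all genes. Only 19 members reached 10 FPKM. Members made up 0.222% of the summed FPKM in the antagomir library and 0.261% in the control library. The minimum of 2 FPKM was reached in both libraries by 104 members, in the antagomir library alone by 13 and in the control library alone by 22. Those that passed through 1 library had to be higher there. The threshold fell between close values: Zfp57, Zfp217 and Zfp97 were just inside with higher values of 2.01, 2.03 and 2.05 FPKM. Zfp120, Zfp654 and Zfp12 were just outside with higher values of 1.98 FPKM each. Zfp12 had 1.98 FPKM in the antagomir library and 0.293 FPKM in the control library, a log2 ratio of 1.20 that is above that of every member.

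The cells were checked against their label, because the make-up of a culture moves with any bulk value. Of 16 cardiomyocyte markers 5 had a value, summing to 50.7 FPKM in the antagomir library and 27.3 FPKM in the control library. Tnnt2, a troponin of the contractile fibre, had 8.19 FPKM in the antagomir library and 1.48 FPKM in the control library, the highest ratio of the 5. The natriuretic peptide gene Nppb had 5.28 FPKM in the antagomir library and 6.86 FPKM in the control library, and Myh6, the adult cardiac myosin, was without a value. Of 12 fibroblast markers 8 had a value, summing to 1164 FPKM in the antagomir library and 1617 FPKM in the control library, and Col1a1, a fibrillar collagen, had 24.2 FPKM in the antagomir library and 58.5 FPKM in the control library. Vim, the most abundant of that list, had 730 FPKM in the antagomir library and 655 FPKM in the control library. Of 6 smooth muscle markers 5 summed to 1324 FPKM in the antagomir library and 1688 FPKM in the control library. That sum is led by Acta2, with 845 FPKM in the antagomir library and 1305 FPKM in the control library, while Des, Cnn1 and Tagln, 3 of the 5, were higher in the antagomir library. In the antagomir library 2 of 8 macrophage markers summed to 22.0 FPKM and 2 of 6 red cell markers, Hba-a1 and Hba-a2, to 20.8 FPKM. In the control library these sums were 16.9 FPKM and 14.4 FPKM. No endothelial marker of 8, Pecam1 included, had a value, nor did Ptprc. Few defining cardiomyocyte genes thus had a value, and the part of these differences in the Zfp values was not tested. In bulk RNA, fewer cells of a type and less RNA per cell cannot be told apart.

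Zfp148 stood furthest from equality among the members. It encodes ZBP-89, a factor that binds GC-rich promoter elements, and lies on chromosome 16. It had 1.48 FPKM in the antagomir library, against 6.84 FPKM in the control library, 3.16-fold lower with a log2 ratio of -1.66. Zfp317, a KRAB gene with 13 fingers on chromosome 9, had 1.74 FPKM in the antagomir library, against 5.32 FPKM in the control library, 2.31-fold lower. Zfp57, the KRAB protein that keeps DNA methylation at imprinted regions, had 0.413 FPKM in the antagomir library, against 2.01 FPKM in the control library, 2.13-fold lower. Exons of these 3 genes did not overlap another gene in GENCODE M21. All 3 passed the minimum of 2 FPKM through the control library alone, so they had to be lower in the antagomir library.

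The next 9 in order were between 1.91-fold and 1.57-fold lower. Zfp608, which represses the Rag recombination genes in mouse thymocytes, had 1.67 FPKM in the antagomir library and 4.10 FPKM in the control library, although its exons overlap those of Gm26742. Zfp35, with 17 fingers and no KRAB A box, was the most abundant of them, with 7.27 FPKM in the antagomir library and 14.6 FPKM in the control library. Zfp451, a SUMO ligase, had 0.888 FPKM in the antagomir library and 2.05 FPKM in the control library. The other 6 all carried a KRAB A box: Zfp959, Zfp9, Zfp930, Zfp566, Zfp960 and Zfp943. They had 0.831 to 2.78 FPKM in the antagomir library and 2.40 to 5.41 FPKM in the control library. Exons of Zfp566 and Zfp943 overlap those of Gm26920 and Gm9772, and 10.03% of the 75-base windows of Zfp959 occurred in another gene. Zfp608, Zfp959, Zfp9, Zfp930, Zfp566 and Zfp451 passed the minimum of 2 FPKM through the control library alone, so they had to be lower in the antagomir library.

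**Figure D2:**
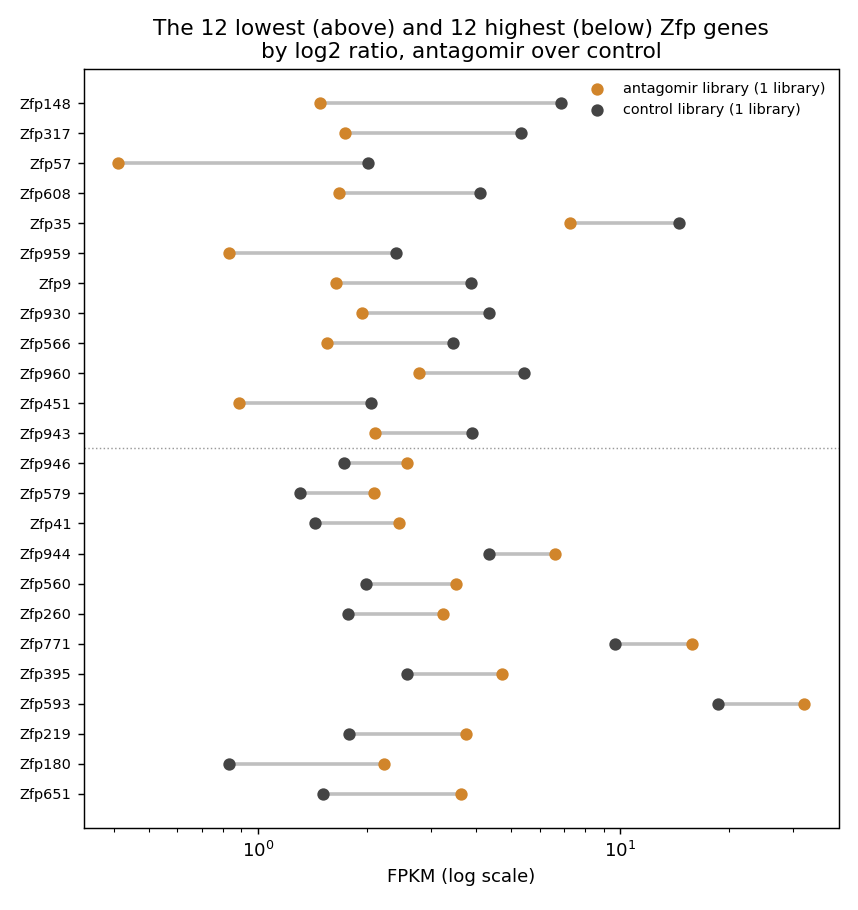
FPKM (log scale) in the antagomir library (orange) and the control library (dark), 1 library each, for the 12 Zfp genes with the lowest log2 ratios (upper rows) and the 12 with the highest (lower rows), joined by a line per gene. Zfp148 sits at 1.48 FPKM in the antagomir library, against 6.84 FPKM in the control library, and Zfp593 at 32.2 FPKM in the antagomir library, against 18.6 FPKM in the control library.

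At the upper end no member reached 2-fold on the FPKM + 1 scale, although 3 did with a pseudocount of 0.1 or 0.01 FPKM and 2 as TPM. Zfp651 had 3.63 FPKM in the antagomir library, against 1.51 FPKM in the control library, 1.84-fold higher, with exons overlapping those of E530011L22Rik. Zfp180 had 2.23 FPKM in the antagomir library, against 0.835 FPKM in the control library, 1.76-fold higher. Zfp219, a cofactor of SOX9 in mouse cartilage, had 3.76 FPKM in the antagomir library and 1.79 FPKM in the control library, and its exons overlap those of Arhgef40 and Tmem253. Zfp593, whose yeast homologue acts in export of the large ribosomal subunit, was the most abundant, with 32.2 FPKM in the antagomir library, against 18.6 FPKM in the control library. Its exons overlap those of E130218I03Rik. Zfp260, a partner of GATA4 in the hypertrophic response of cardiomyocytes, had 3.23 FPKM in the antagomir library and 1.77 FPKM in the control library. Zfp395, Zfp771 and Zfp560 completed the 8 that were at least 1.5-fold higher. Zfp560 was the only one with a KRAB A box, at 3.52 FPKM in the antagomir library and 1.99 FPKM in the control library. Zfp771, with a GC content of 68.7%, had 15.7 FPKM in the antagomir library and 9.69 FPKM in the control library. Its log2 ratio was 0.65, which became 0.12 after adjustment for length and GC content. Next in order were Zfp944, Zfp41, Zfp579 and Zfp946, between 1.42-fold and 1.31-fold higher. Zfp651, Zfp180, Zfp219, Zfp260, Zfp560, Zfp41, Zfp579 and Zfp946 passed the minimum of 2 FPKM through the antagomir library alone, so they had to be higher there.

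Members were also grouped by role. Of 14 listed genes of RNA and ribosome biology 12 were members, and their log2 ratios had a median of -0.16. Past 1.5-fold were 1 higher member and 1 lower member, or 8.33% each, under the 11.5% higher and 14.2% lower of all genes. Zfp385a, on the same list but not a member because its symbol ends in a letter, had 8.51 FPKM in the antagomir library and 16.3 FPKM in the control library. The higher one was Zfp593. The lower one was Zfp36, tristetraprolin, which binds AU-rich elements and speeds mRNA decay, with 2.10 FPKM in the antagomir library and 3.71 FPKM in the control library; its exons overlap those of Gm44710. Factors that act on the ribosome had unlike ratios. Zfp598, a ubiquitin ligase that marks collided ribosomes, had 25.4 FPKM in the antagomir library and 33.3 FPKM in the control library. Zfp622, a maturation factor of the large subunit, had 29.9 FPKM in the antagomir library and 30.2 FPKM in the control library, a log2 ratio of -0.01. Zfp330, a nucleolar protein, and Zfp207, a spindle assembly factor, had log2 ratios of -0.48 and -0.38. Zfp346, which binds double-stranded RNA, and Zfp106, an RNA-binding protein needed by mouse motor neurons, had log2 ratios of -0.30 and -0.02. Zfp830, a splicing factor, Zfp326, a subunit of a complex that couples elongation to splicing, and Zfp638 had log2 ratios of 0.34, 0.30 and 0.20. Zfp326 and Zfp638 passed the minimum of 2 FPKM through the antagomir library alone, so they had to be higher there.

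Among 9 listed KRAB proteins with known DNA targets 3 were members. All 3 were lower in the antagomir library, as were 54.3% of all genes. Beside Zfp57, these were Zfp445, which acts with ZFP57 at imprinted regions, and Zfp932, a repressor of endogenous retroviruses. Zfp445 had 4.13 FPKM in the antagomir library and 4.59 FPKM in the control library. Zfp932 had 2.17 FPKM in the antagomir library and 3.41 FPKM in the control library, with 39.6% of its 75-base windows shared. The pair of imprinting regulators thus differed in size, with log2 ratios of -1.09 for Zfp57 and -0.12 for Zfp445. Zfp57 passed the minimum of 2 FPKM through the control library alone, so it had to be lower in the antagomir library.

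Of 28 listed developmental and transcription regulators 22 were members, with a median log2 ratio of -0.22. None was at least 1.5-fold higher and 4 were at least 1.5-fold lower: Zfp148, Zfp608, Zfp451 and Zfp110. These 4 are 18.2% of the 22, where 14.2% of all genes were as low, and 11.5% of all genes were 1.5-fold higher or more. Zfp148, Zfp608 and Zfp451 passed the minimum of 2 FPKM through the control library alone, so they had to be lower in the antagomir library. Of the 22, Zfp217 passed through the antagomir library alone, so it had to be higher there. Zfp110, a KRAB protein that binds the neurotrophin receptor p75, had 3.00 FPKM in the antagomir library and 5.004 FPKM in the control library. Between these and equality lay Zfp143, an activator bound at many promoters, with 2.89 FPKM in the antagomir library and 4.17 FPKM in the control library. Zfp131 had 6.57 FPKM in the antagomir library and 8.63 FPKM in the control library. Zfp592 and Zfp384 had log2 ratios of -0.38 and -0.37. Zfp703, Zfp516, an activator of the brown fat programme, Zfp292, Zfp609 and Zfp91 lay between -0.27 and -0.10. Zfp410, which activates Chd4, had 2.18 FPKM in the antagomir library and 2.20 FPKM in the control library. Zfp335, Zfp281, a regulator of pluripotency, Zfp24, a factor of myelination, and Zfp367 lay between 0.01 and 0.04. Zfp687, a partner of ZFP592 in a chromatin complex, was the highest of the list, with 3.29 FPKM in the antagomir library and 2.42 FPKM in the control library.

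The 10 most abundant members all lacked a KRAB A box. Zfp706, which promotes exit from self-renewal in mouse embryonic stem cells, had 26.3 FPKM in the antagomir library and 34.8 FPKM in the control library. Of its 75-base windows 24.1% occurred in another gene, among them Gm10193. Zfp740 was nearly equal, with 23.6 FPKM in the antagomir library and 23.5 FPKM in the control library, as was Zfp106, with 17.2 FPKM in the antagomir library and 17.4 FPKM in the control library. Zfp830 had 21.4 FPKM in the antagomir library and 16.8 FPKM in the control library. Zfp91, a ubiquitin ligase, had 16.6 FPKM in the antagomir library and 18.0 FPKM in the control library. Zfp146, which consists almost wholly of zinc fingers, had 13.4 FPKM in the antagomir library and 15.8 FPKM in the control library. Of these 10 genes 2 were at least 1.5-fold apart, Zfp593 and Zfp771, both higher in the antagomir library. Among all genes 11.5% lay that far up and 14.2% that far down. After adjustment for length and GC content the log2 ratio of Zfp771 fell from 0.65 to 0.12, under the 1.5-fold limit. That of Zfp593 went from 0.76 to 0.62 and stayed past it.

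A KRAB A box was found in 61 members by a profile search of the translated GENCODE M21 coding sequences. These members had a median log2 ratio of -0.26, with 45 lower in the antagomir library (73.8%), 13 at least 1.5-fold lower (21.3%) and 1 at least 1.5-fold higher (1.64%). The 78 members without one had a median of -0.12, with 44 lower (56.4%), 9 at least 1.5-fold lower (11.5%) and 7 at least 1.5-fold higher (8.97%). Over all genes these shares were 14.2% and 11.5%. A member that passed the minimum of 2 FPKM through 1 library alone had to be higher in that library. Of the 13 lower KRAB members Zfp317, Zfp57, Zfp959, Zfp9, Zfp930, Zfp566, Zfp994, Zfp942 and Zfp935 passed through the control library alone. So did Zfp148, Zfp608, Zfp451, Zfp827 and Zfp800 of the 9 without a KRAB A box. Zfp560, with a KRAB A box, and Zfp651, Zfp180, Zfp219 and Zfp260, without one, passed through the antagomir library alone. KRAB members were also less abundant, with medians of 2.52 FPKM in the antagomir library and 3.39 FPKM in the control library, where the other members had medians of 3.64 FPKM in the antagomir library and 4.11 FPKM in the control library. They were poorer in G and C, with a median GC content of 40.8% against 50.5%. After adjustment for length and GC content by a fitted trend, the medians were -0.29 for KRAB members and 0.01 for the others, so the others changed sign. Without the FPKM minimum the KRAB genes had a median of -0.05 over 149 genes and the others one of -0.07 over 111 genes. The lower median of the KRAB genes was therefore seen at a minimum of 2 or 5 FPKM and not over all genes of the table. Among the 18 members with at least 5% shared windows 16 were lower in the antagomir library, with a median of -0.37, and with them left out the KRAB median was -0.26 and that of all members -0.15.

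**Figure D3:**
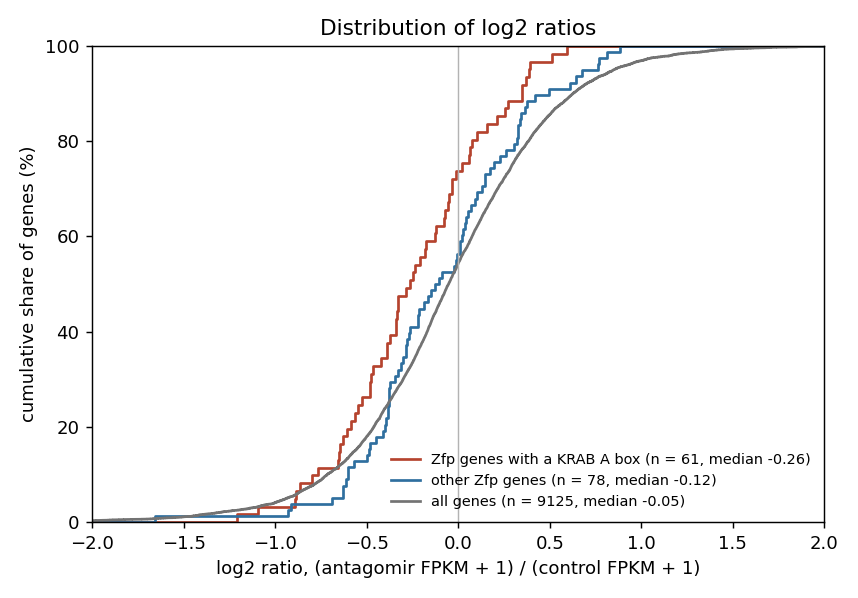
Cumulative share of genes (vertical, percent) at or below each log2 ratio of antagomir over control (horizontal) for the 61 Zfp genes with a KRAB A box, the 78 without and all 9125 genes with the same minimum. The KRAB curve crosses 0 at 73.8%, the other Zfp genes at 56.4% and all genes at 54.3%.

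The number of zinc fingers had a Spearman's rho of -0.08 with the log2 ratio across members. KRAB members had a median of 11 fingers and the others one of 6.5, up to 30 in Zfp646. Members with 5 fingers or fewer (44 genes) had a median log2 ratio of -0.13, those with 6 to 10 (49 genes) one of -0.22 and those with more than 10 (46 genes) one of -0.17. In that order 59.1%, 63.3% and 69.6% were lower in the antagomir library, against 54.3% of all genes. At least 1.5-fold lower were 9.09%, 18.4% and 19.6%, against 14.2% of all genes. At least 1.5-fold higher were 4.55%, 6.12% and 6.52%, against 11.5%. In 6 members the C2H2 pattern was not found, among them Zfp36, whose fingers are of another class. Across the 139 members Spearman's rho between the log2 ratio and transcript length was -0.0012, where it was -0.31 across 9117 genes, and with GC content it was 0.26 and 0.14. Genes within 1 pair of libraries share their depth and composition, so these are descriptions.

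Members lay on 19 chromosomes, with 29 on chromosome 7 and 23 on chromosome 17. On chromosome 17, 18 of 23 were lower in the antagomir library and the median log2 ratio was -0.37, where all genes of that chromosome had a median of 0.01. On chromosome 7, 17 of 29 were lower and the median was -0.08, against -0.02 over all genes there. On chromosome 13, 7 of 8 were lower and on chromosome 8, 8 of 10, with medians of -0.32 and -0.31. All genes of these chromosomes had medians of -0.07 and -0.06. On chromosome 2, 6 of 9 were higher, with a median of 0.03, against -0.03 over all genes there. Over the whole genome 54.3% of all genes were lower in the antagomir library and 45.7% higher. Members within 1 run can be tandem relatives, so they are not independent of each other. Members that passed the minimum of 2 FPKM through 1 library alone had to be higher in that library.

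A run was defined as at least 3 members on a chromosome with at most 1 Mb between neighbours. There were 13 runs with 60 members, and 79 members lay outside. Members in runs had a median log2 ratio of -0.08 and those outside one of -0.25. The split held within KRAB members, whose median was -0.21 in runs (38 genes) and -0.34 outside (23 genes). Outside runs 21 of 23 were lower in the antagomir library (91.3%), against 54.3% of all genes. Of these 21, Zfp57, Zfp959, Zfp9, Zfp935, Zfp202, Zfp97, Zfp369, Zfp58 and Zfp958 passed the minimum of 2 FPKM through the control library alone. They had to be lower in the antagomir library. In runs Zfp317, Zfp930, Zfp566, Zfp994, Zfp942, Zfp688 and Zfp995 did so too, and Zfp560, Zfp946 and Zfp970 passed through the antagomir library alone. Members without a KRAB A box had a median of 0.07 in runs (22 genes) and -0.20 outside (56 genes). With gaps of at most 0.5 Mb the medians in and outside runs were -0.17 and -0.21, so the distance between them depended on how a run was drawn.

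Runs were mixed inside. Of the 13 runs 6 had a median below 0 and 7 above, 12 held members of both directions, and in 6 the lowest and highest member were at least 1 apart on the log2 scale. The largest, with 13 KRAB genes from Zfp160 to Zfp213 at chr17:21008941-23564226 (GRCm38), had 9 members lower and 4 higher in the antagomir library and a median of -0.33. Its summed level was 41.0 FPKM in the antagomir library and 45.4 FPKM in the control library, a log2 ratio of -0.15 between the sums. Zfp943 was its lowest and Zfp944 its highest member, and at a minimum of 5 FPKM its median turned to 0.37. Over all genes 54.3% were lower and 45.7% higher. Zfp942, Zfp994 and Zfp995 of this run passed the minimum of 2 FPKM through the control library alone, and Zfp946 through the antagomir library alone. In every run such members had to be higher in that library. On chromosome 9 the run from Zfp317 to Zfp266 held both Zfp317, at -1.21, and Zfp560, at 0.59. Zfp317 passed through the control library alone and Zfp560 through the antagomir library alone, so the minimum set their directions. On chromosome 15 the run from Zfp41 to Zfp7 had a median of 0.35, although Zfp623 in it had 6.81 FPKM in the antagomir library and 10.9 FPKM in the control library, and its summed FPKM gave -0.11. On chromosome 8 the run of 3 KRAB genes from Zfp930 to Zfp869 had a median of -0.34 and on chromosome 6 the run of 4 from Zfp282 to Zfp746 one of -0.27. Only the run from Zfp787 to Zfp954 on chromosome 7 had all members, 3 of 3, on one side, with ratios of 0.15 to 0.36. The lowest median, -0.60, was that of 3 genes from Zfp397 to Zfp24, in which Zfp35 was lowest and Zfp24 nearly equal, with 5.61 FPKM in the antagomir library and 5.45 FPKM in the control library. The median of 8 of the 13 runs changed sign under at least 1 alternative way of processing.

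**Figure D4:**
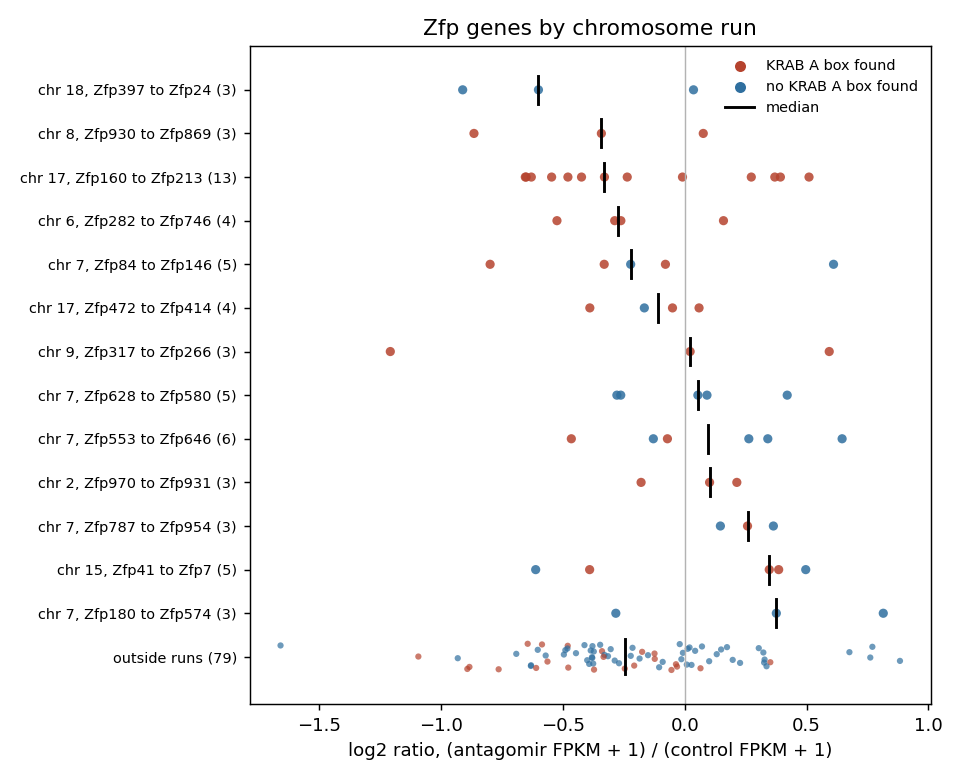
Log2 ratio of antagomir over control (horizontal) for each Zfp gene, by chromosome run (rows, number of genes in brackets) and for the 79 genes outside runs, with a black bar at each median. In 12 of the 13 runs points lie on both sides of 0.

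Neighbours at short range also differed. Within 10 kb of each other lay 7 pairs of members, 2 with the same direction and 5 with opposite directions. Zfp942 and Zfp943 are transcribed away from each other with 87 bases between them, and their RefSeq promoter windows share 194 bases, read on opposite strands. Both were lower in the antagomir library, with log2 ratios of -0.63 and -0.65. Zfp943 had 2.10 FPKM in the antagomir library and 3.89 FPKM in the control library. Zfp566 and Zfp260 are likewise transcribed apart, with 4249 bases between them, and had log2 ratios of -0.80 and 0.61. Zfp566 had 1.56 FPKM in the antagomir library and 3.45 FPKM in the control library. Among the 7 pairs, Zfp566 and Zfp942 passed the minimum of 2 FPKM through the control library alone. Zfp260 and Zfp865 passed it through the antagomir library alone. Each of these had to be higher in that library, so the opposite directions of Zfp566 and Zfp260 were set by the minimum.

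Promoters of members were rich in CpG. RefSeq windows from 250 bases before to 50 bases after the start site matched 110 of the 139 members. Their median ratio of observed to expected CpG was 0.721, against 0.384 over all 32851 windows of the table. The GC box GGGCGG was found on either strand in 53.6% of member windows and 35.7% of all windows. The ETS core CCGGAAG was found in 21.8% and 8.86%, and the CCAAT box CCAAT in 45.5% and 37.4%. TATAAA was the less frequent one, in 9.09% of member windows and 13.6% of all windows. The ZFP143 core ACTACAATT was found in 3.64% and 0.393%, the YY1 core AAGATGGCG in 4.55% and 1.40%, and the cAMP response element TGACGTCA in 2.73% and 1.79%. Of these motifs GGGCGG, at base 222 of each stretch, is held by both promoter stretches printed for Zfp942 and Zfp944. The table of all windows was not limited to genes expressed in these cells, so the shares do not compare members with other expressed genes.

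Genes whose products act with KRAB proteins were set beside the members. Of 31 listed genes of the KAP1 corepressor and heterochromatin 27 reached 2 FPKM, with a median log2 ratio of 0.16. Of these 27, 17 were higher in the antagomir library (63.0%), against 45.7% of all genes. Past 1.5-fold were 2 in each direction, or 7.41%, under the 11.5% higher and 14.2% lower of all genes, and the difference from the members was not tested. Trim28, which encodes KAP1, had 56.5 FPKM in the antagomir library and 58.1 FPKM in the control library. Setdb1, the histone methyltransferase that KAP1 recruits, had 6.72 FPKM in the antagomir library and 6.68 FPKM in the control library, with exons overlapping those of Cers2. At least 1.5-fold higher were Ehmt2, a histone H3 methyltransferase also called G9a, with 24.9 FPKM in the antagomir library and 13.6 FPKM in the control library, and Cbx3, heterochromatin protein HP1 gamma, with 37.7 FPKM in the antagomir library and 22.9 FPKM in the control library. At least 1.5-fold lower were Mta1, a subunit of the NuRD complex, with 22.3 FPKM in the antagomir library and 38.9 FPKM in the control library, and Morc2a, which acts with the HUSH complex, with 8.08 FPKM in the antagomir library and 15.3 FPKM in the control library. Exons of Morc2a overlap those of Tug1.

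Other zinc finger families with the same minimum were set beside the members. The Zbtb genes, which carry a BTB domain, numbered 25 and had a median of -0.15. Of these, 1 was 1.5-fold higher or more (4%) and 5 were 1.5-fold lower or more (20%). Over all genes these shares were 11.5% and 14.2%. The Zc3h genes, with fingers of the CCCH class, numbered 12, with a median of -0.16. Past 1.5-fold were 1 higher (8.33%) and 2 lower (16.7%). The Zkscan and Zscan genes, which carry a SCAN domain, numbered 8, with a median of -0.37 and 3 genes (37.5%) past 1.5-fold lower. The Klf genes, the Krüppel-like factors, lay furthest down, with a median of -0.70 and 7 of 12 genes (58.3%) past 1.5-fold lower. Klf4, a stress-responsive factor of this family, had 32.8 FPKM in the antagomir library and 95.5 FPKM in the control library. The sign of the Zbtb median turned at a minimum of 5 FPKM and with the length and GC trend removed, and the other 3 families were below 0 under every alternative. Of the family genes past 1.5-fold, Zbtb44, Zbtb10, Zbtb7c, Zscan26, Zkscan1 and Klf15 passed the minimum of 2 FPKM through the control library alone. They had to be lower in the antagomir library. Zc3h12a passed through the antagomir library alone, so it had to be higher there. None of these differences between families was tested.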

How the data were processed

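RNA sequencing of 2 libraries, 1 per group by the sample titles, gave gene values in FPKM, deposited by the authors as 1 table with a column per library. Per the labels' protocols, polyadenylated RNA was isolated and a stranded kit was used, although adaptor ligation at both RNA ends is listed too. Per the submitters' processing notes, cutadapt, HISAT2 and StringTie 1.3.3 were used on GRCm38. Annotation, settings and strand use were not given in the sources used here, so genes with overlapping exons on either strand are uncertain. FPKM divides by length and library total, so abundant genes lower the rest. Depth is unknown, so no interval was computed.

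Members, gene lists and limits were chosen with earlier results of these data known. The log2 ratio used a pseudocount of 1 FPKM and a minimum of 2 FPKM in the higher library, and with 1 library per group nothing was tested. Runs allowed gaps of 1 Mb. The text names the 12 members at each end, those past 2-fold, the 10 most abundant, the ends of each run, role lists, KAP1 genes past 1.5-fold with Trim28 and Setdb1, the 3 genes on each side of the minimum, and marker genes. Named after their values were seen were Zfp942, Zfp646, Hba-a2, Nppb, Vim, Acta2, Des, Cnn1, Tagln, Klf4 and genes that share exons or windows with members.

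KRAB A boxes were found with a profile from 113 sequences in pyhmmer 0.12.3 at an E-value of 1e-05, in translations of GENCODE M21 rather than in RefSeq proteins as first planned. Of the gene identifiers 10982 were found there. The authors' annotation can differ. Python 3.11.15, pandas 2.3.3, numpy 2.4.6, scipy 1.17.1, biopython 1.88 and matplotlib 3.10.9 were used, and the counting steps were tested on simulated data. Alternatives were other pseudocounts, minimums, scalings, a length and GC trend, and leaving out uncertain members.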

Additional observations from a re-analysis of the deposited data

How the results depend on the processing

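All values rest on 1 library per group, on low FPKM of unknown depth and on an unstated use of strand. No paired analysis was possible because each group had 1 library. As TPM the median of all genes shifted to -0.14. There the member median was -0.30, or -0.17 relative to all genes, and the median was -0.37 outside runs, -0.39 for KRAB members, -0.26 for Zbtb, -0.53 for Zkscan and Zscan and -0.85 for Klf genes, with 35 members 1.5-fold lower, 2 members 2-fold higher and 10 2-fold lower. Of all genes 20.5% were then 1.5-fold lower and 6.93% 2-fold lower. Without the FPKM minimum the member median was -0.061, that outside runs -0.13 and that of KRAB genes -0.054, with 1 gene 2-fold higher. At a minimum of 5 FPKM 2 members were 1.5-fold higher and 7 lower, the median in runs was -0.39 over 3 genes, that of Zbtb 0.15 and that of Zkscan and Zscan -0.50. With a pseudocount of 0.1 FPKM 3 members were 2-fold higher and 9 lower, and Zkscan and Zscan had -0.50. With 0.01 FPKM these counts were 3 and 10, 35 members were 1.5-fold lower, and medians were -0.36 for KRAB members, -0.51 for Zkscan and Zscan and -0.80 for Klf. Centred on the median of all genes 14 members were 1.5-fold lower. With the length and GC trend removed medians were 0.011 for members without a KRAB A box, 0.048 for Zbtb and -0.57 for Klf. Without overlapping genes 5 members were 1.5-fold higher, and medians were -0.014 without a KRAB A box, -0.26 for Zbtb, -0.23 for Zkscan and Zscan and -0.55 for Klf. Leaving out members with shared windows, chosen after seeing the data, moved the medians of all members, of KRAB and other members and in and outside runs by less than 0.1, but that of the run from Zfp553 to Zfp646 from 0.10 to 0.26, and 11 runs were left of 13. Of the 30 members past 1.5-fold, 8 came under it when centred and 7 with the trend removed, and none changed sign under the 7 settings run per gene. Why values moved was not tested.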
